A study of Mus musculus with 12 samples.

Results

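The claudins are the membrane proteins that form the strands of the tight junction, the seal between neighbouring epithelial or endothelial cells. 10 claudin genes, Cldn1, Cldn2, Cldn3, Cldn4, Cldn5, Cldn7, Cldn10, Cldn12, Cldn18 and Cldn23, were chosen by gene symbol from the 23420 genes of the count table. All 10 passed the filter on low counts, as did 15369 genes in all. Their RNA was followed in whole tissue from the pylorus, where the stomach opens into the duodenum, in C57BL/6 mice, as 4 groups of 3 libraries. D80SV were CEA424-SV40 T Ag transgenic mice at 80 days of age, D80WT were wild-type mice at 80 days, D60SV were transgenic mice at 60 days and D60WT were wild-type mice at 60 days. The labels give no treatment. The transgene places SV40 large T antigen, a viral oncoprotein that inactivates p53 and the retinoblastoma proteins, under a carcinoembryonic antigen promoter, and tumours arise in the pylorus. The bulk RNA held epithelium, stroma, muscle and any tumour together, so fewer cells of a type and less RNA per cell cannot be told apart. The labels do not say whether libraries came from separate animals, so p-values measure the spread between libraries.

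Each claudin crosses the membrane as a small protein whose outer loops meet those of claudins on the next cell. The mixture of claudins in a strand sets what passes between the cells. Some members seal the space, among them Cldn1, Cldn3, Cldn4, Cldn5, Cldn7 and Cldn18, and others form channels, with Cldn2, Cldn10 and Cldn15 as the best known. In the stomach Cldn18 is the characteristic member, and mice that lack it leak acid into the mucosa.

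Libraries held 20121600 to 27633715 counts. Levels are given as CPM, counts per 1e+06 of a library, with a composition factor (the trimmed mean of M-values, TMM). Differences are log2 fold changes with their standard error (SE) from edgeR's quasi-likelihood test, with p adjusted by Benjamini-Hochberg over all 15369 genes, and a gene passed the test at an adjusted p under 0.05. By Xist and Y-linked transcripts the 3 D60WT libraries were male and the 3 D60SV libraries female, so sex and genotype cannot be told apart at D60. The D80WT libraries were female, as were D80SV replicates 2 and 3, and D80SV replicate 1 was male. D80WT replicate 3 stood apart by its small-intestinal transcripts, with a summed level of 13080.4 CPM over 12 of 12 tested duodenal enterocyte genes, against 753 and 3260 CPM in the other D80WT libraries. D80WT replicate 1 held the most transcripts of gland mucous and zymogenic cells, 71010 CPM over 8 of 8 genes, against 31174 and 20232 CPM in D80WT replicates 2 and 3. The 12 neuroendocrine genes summed to 25252 to 37813 CPM in D80SV libraries, against 538 to 573 CPM in D80WT libraries, and to 4370 to 5986 CPM in D60SV libraries, against 321 to 467 CPM in D60WT libraries.

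At D80, 4 of the 10 claudins differed between transgenic and wild-type pylorus. Cldn10 was higher in transgenic mice, and Cldn12, Cldn18 and Cldn23 were lower. Over all genes tested, 41.3% passed at D80, 19.4% as higher and 22% as lower, so a count of 4 in 10 was close to the background. Without D80WT replicate 3 and D80SV replicate 1 the count was also 4, with Cldn4 among the 2 higher (log2 fold change 1.58, adjusted p 0.027) and Cldn23 no longer among the 2 lower (adjusted p 0.19). The median log2 fold change of the 10 claudins was -0.01, against -0.07 over all genes tested. The members' log2 fold changes ran from 2.74 for Cldn10 to -1.51 for Cldn18. Of the 6 that did not pass, the log2 differences ran from -0.66 for Cldn1 to 0.84 for Cldn2.

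**Figure D1:**
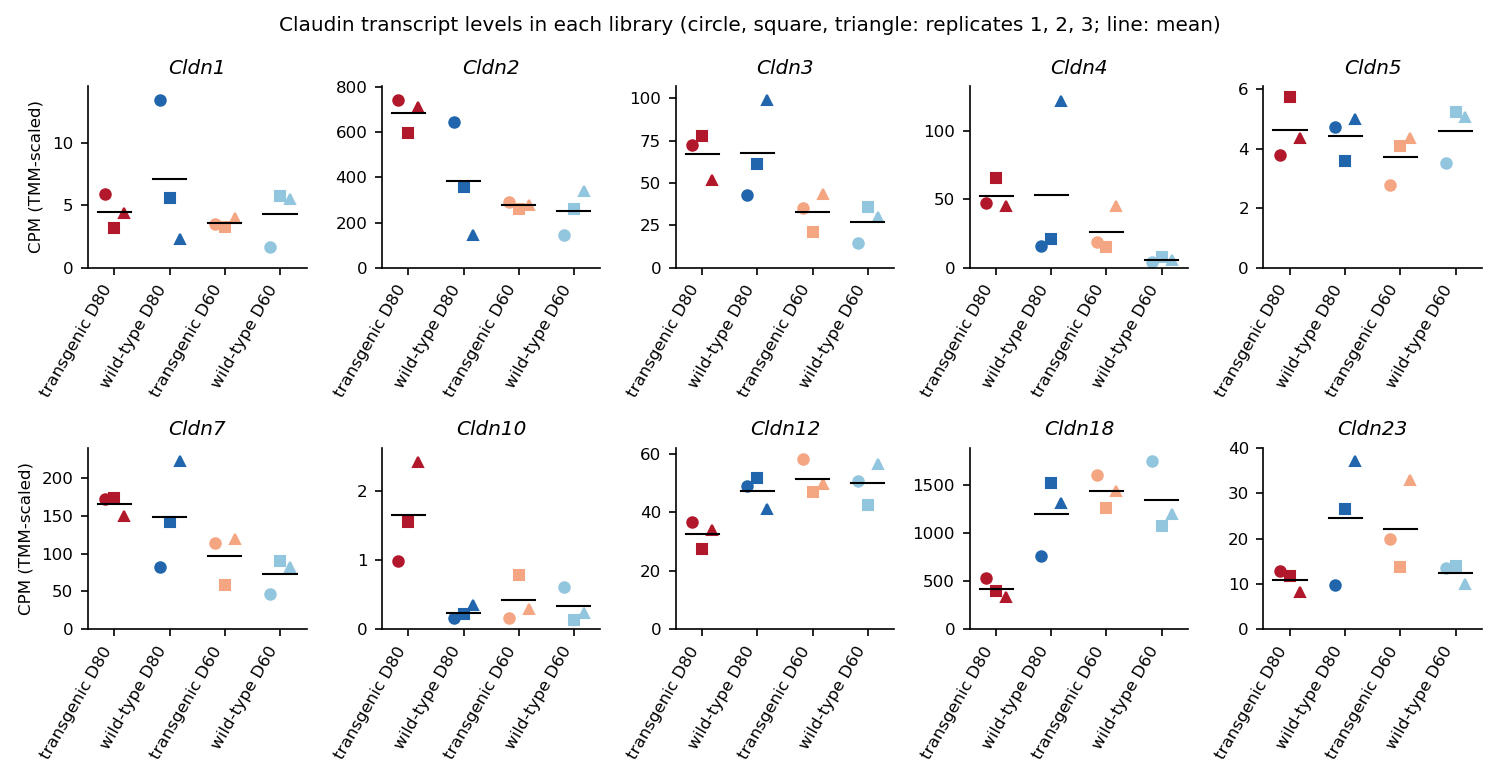
Level of each claudin in each library (TMM-scaled CPM, linear axes from 0), by group, with 3 libraries per group as points and the group mean as a line. Cldn18 lies between 332 and 535 CPM in D80SV, under all libraries of the other groups, and Cldn10 lies above them at 0.991 to 2.42 CPM.

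The genes lie on 7 chromosomes (mm10, GRCm38; gene limits from GENCODE). Cldn18 spans chr9:99689461-99717267 on the minus strand and Cldn2 chrX:139800828-139811386 on the plus strand. Cldn4, at chr5:134945119-134946934 on the minus strand, and Cldn3, at chr5:134986214-134987472 on the plus strand, are neighbours. Cldn7 lies apart from them at chr11:69964779-69967885. The 200 bases before the transcription start are shown for the member with the largest fall (both of its starts), for Cldn2, the more abundant of the 2 channel members that rose with age, and for the sealing members Cldn3, Cldn7 and Cldn4, of which Cldn3 and Cldn7 had the most alike profiles. The sequences are RefSeq's, build GRCm38.p6, 5′ to 3′ on the gene's strand, and capitals mark matches to the motifs named after them.
Cldn18 start 1, chr9:99717268-99717467, minus strand: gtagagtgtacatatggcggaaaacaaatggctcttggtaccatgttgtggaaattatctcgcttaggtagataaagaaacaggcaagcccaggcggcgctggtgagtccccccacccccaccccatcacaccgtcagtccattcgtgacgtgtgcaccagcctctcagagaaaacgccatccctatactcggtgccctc
Cldn18 start 2, chr9:99710064-99710263, minus strand: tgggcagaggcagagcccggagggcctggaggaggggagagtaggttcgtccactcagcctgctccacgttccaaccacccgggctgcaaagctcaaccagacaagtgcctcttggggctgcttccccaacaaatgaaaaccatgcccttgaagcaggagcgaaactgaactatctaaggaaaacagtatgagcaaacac
Cldn2, chrX:139800608-139800807, plus strand: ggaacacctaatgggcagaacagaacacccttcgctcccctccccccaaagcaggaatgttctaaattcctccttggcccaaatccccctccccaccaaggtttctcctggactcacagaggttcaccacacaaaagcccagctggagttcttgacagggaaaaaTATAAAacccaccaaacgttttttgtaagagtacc
Cldn3, chr5:134986014-134986213, plus strand: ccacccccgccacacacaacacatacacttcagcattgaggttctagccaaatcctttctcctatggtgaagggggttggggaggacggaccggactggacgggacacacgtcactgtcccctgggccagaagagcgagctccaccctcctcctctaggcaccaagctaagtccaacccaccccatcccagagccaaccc
Cldn7 start 2, chr11:69965221-69965420, plus strand: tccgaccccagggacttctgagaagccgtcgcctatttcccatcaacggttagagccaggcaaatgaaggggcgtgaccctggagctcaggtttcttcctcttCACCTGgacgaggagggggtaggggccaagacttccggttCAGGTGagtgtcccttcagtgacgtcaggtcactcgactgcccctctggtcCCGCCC
Cldn4, chr5:134946935-134947134, minus strand: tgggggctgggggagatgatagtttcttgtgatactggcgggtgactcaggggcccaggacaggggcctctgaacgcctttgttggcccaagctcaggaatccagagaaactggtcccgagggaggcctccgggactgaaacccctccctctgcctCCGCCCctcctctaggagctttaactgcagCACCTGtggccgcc

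A window was found for 9 of the 10 members, and 6 motifs were searched on both strands. Shares below are of 32851 promoter windows of the same length. The TATA box, TATAAA, is in 9.96% of all windows, and Cldn2 held it 35 bases before the start. The E-box that Snail and Zeb repressors bind, CACCTG, is in 13.9% of all windows. Cldn7 start 2 held that E-box once on each strand, 97 and 57 bases before the start, and Cldn4 held it 14 bases before the start. The GC box, GGGCGG, is in 31% of all windows, and the windows of Cldn4 and of Cldn7 start 2 held it on the reverse strand. The motif of grainyhead-like factors, AACCGGTT, is in 0.0822% of all windows. The HNF4 motif, CAAAGTCCA, is in 0.317% of them. The motif of caudal-type homeobox factors, TTTATNG, is in 7.73% of them. None of the 6 had a match in the windows of Cldn3 or of either Cldn18 start, and the last 3 had none in the windows shown. Cldn7 start 1, chr11:69964579-69964778, is not shown and had no match to any of the 6. The 2 starts of Cldn18 lead to different first exons, and the gene counts do not separate them.

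Cldn18, the sealing claudin of gastric epithelium, had 535, 394 and 332 CPM in D80SV, against 761, 1520.4 and 1315 CPM in D80WT. All 3 transgenic libraries lay below all 3 wild-type libraries. The D80 difference was a log2 fold change of -1.51 (SE 0.28), 2.85-fold lower in transgenic mice, with an adjusted p of 0.0017 by edgeR. At D60 the levels were 1608, 1264 and 1435 CPM in D60SV, against 1747, 1075 and 1201 CPM in D60WT. These groups overlapped, with a log2 fold change of 0.10 (SE 0.28, adjusted p 0.94). Within transgenic mice Cldn18 fell with age by 1.77 on the log2 scale (SE 0.29), 3.41-fold, with an adjusted p of 0.0011. The genotype difference changed between the ages by -1.61 (SE 0.40) on the log2 scale, with an adjusted p of 0.041, the 1 claudin of 10 to pass that interaction test, which 5% of all genes tested passed. That call was lost in 12 of 21 alternative analyses, most of which left out 1 library, with adjusted p up to 0.12.

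The lower level of Cldn18 in D80SV ran beside lower levels of gastric surface cell transcripts. The 11 genes of surface mucous (pit) cells, all of them tested, summed to 45458 to 63936 CPM in D80SV and to 133789 to 179006 CPM in D80WT. Of the 11, 9 passed as lower in D80SV, where 22% of all genes tested did. At D60 the sums overlapped, at 141503 to 178124 CPM in D60SV and 156102 to 236860 CPM in D60WT. None of these genes was at 0 counts. The part of this marker shift in the Cldn18 result was not tested. The genes whose profiles over the 12 libraries were most like that of Cldn18, among 11474 genes of at least 5 CPM on average, were Anxa3, Ptgr1 and Ethe1. Their root-mean-square differences from it, after each gene was centred on its own mean log2 level, were 0.12, 0.12 and 0.14.

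**Figure D2:**
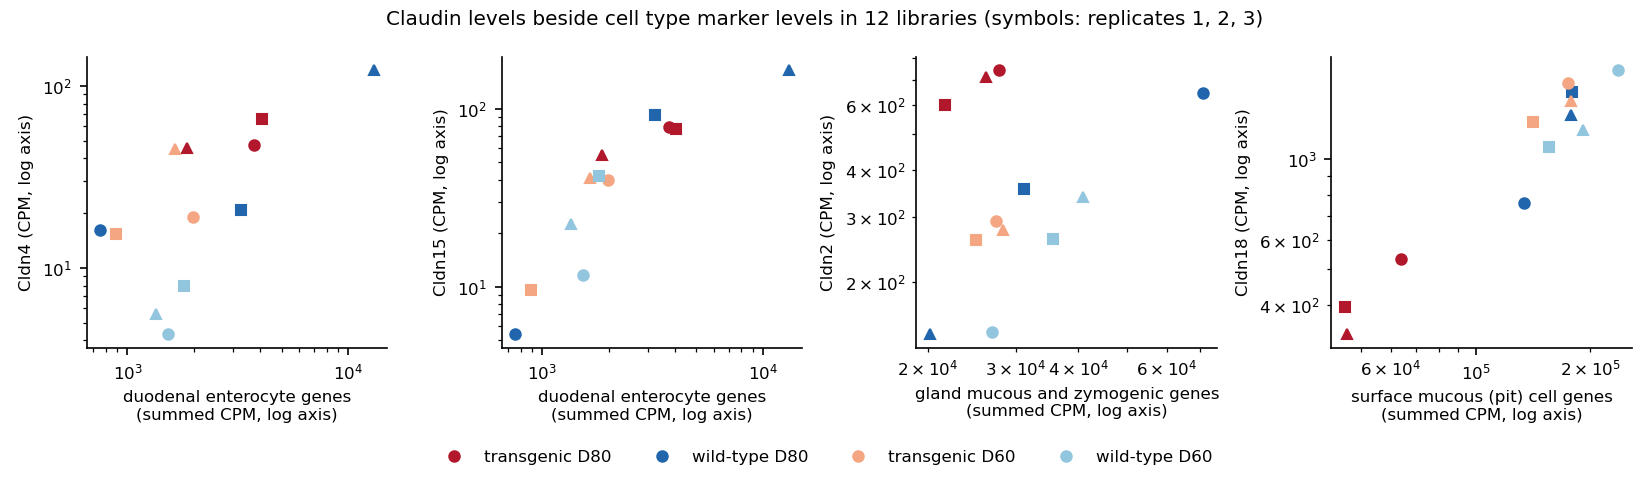
Claudin level (CPM) against the summed CPM of a marker list in the 12 libraries, both axes logarithmic. In D80SV, Cldn18 and the surface mucous sum are both below all other libraries, and D80WT replicate 3 (blue triangle) is highest in Cldn4, in Cldn15 and in the duodenal sum.

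Cldn2 forms a channel for small cations and water and is typical of leaky epithelia. Its level was 743, 598 and 711 CPM in D80SV, against 645, 357 and 145 CPM in D80WT. The D80SV libraries were close to each other, while D80WT spread over more than 4-fold, and replicate 1 of D80WT lay within the transgenic range. The D80 log2 fold change of 0.84 (SE 0.42) did not pass the test, with an adjusted p of 0.13. Without D80WT replicate 1 it was 1.45, with an adjusted p of 0.0091. At D60 the levels were 292, 260.5 and 276 CPM in D60SV, against 147, 262 and 339 CPM in D60WT (log2 fold change 0.15, SE 0.42, adjusted p 0.94).

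With age, Cldn2 rose in transgenic mice by a log2 fold change of 1.31 (SE 0.43), 2.48-fold, with an adjusted p of 0.033. The D80SV libraries lay above all D60SV libraries. In 8 of 22 alternatives the adjusted p was above the threshold, up to 0.089, with a log2 fold change of 1.24 to 1.40 in those 8; leaving out any 1 of the 6 libraries of the comparison was among them. In wild-type mice the change with age was 0.62 (SE 0.42, adjusted p 0.6). D80WT replicate 1, highest of its group in Cldn2, was also highest in gland mucous and zymogenic transcripts, whose sum was 21662 to 27815 CPM in D80SV and 20232 to 71010 CPM in D80WT. Whether those cells bear on the wild-type spread of Cldn2 was not tested. The 3 most alike profiles were those of Lox, 5330417C22Rik and Aqp1, at root-mean-square differences of 0.24, 0.25 and 0.25.

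Cldn10, another channel former, was the lowest of the 10 by level but rose in transgenic mice. It had 33, 42 and 78 counts in D80SV libraries, 0.991, 1.55 and 2.42 CPM, against 4, 5 and 8 counts in D80WT libraries, 0.163, 0.221 and 0.347 CPM. All D80SV libraries were above all D80WT libraries. The log2 fold change was 2.74 (SE 0.64), 6.70-fold, with an adjusted p of 0.0058, and it passed in all 21 alternatives that tested the gene. In the fits of 2 groups without D80SV, 9 claudins passed the filter on low counts and Cldn10 did not. Its entry into the test thus rested on D80SV, the group where it was high. Against D60SV, with 4, 19 and 7 counts, the D80SV libraries were higher by 1.97 (SE 0.60, adjusted p 0.025). That age call was lost when any of D60SV replicates 1 and 3 or D80SV replicates 2 and 3 was left out, with adjusted p up to 0.096. At D60 the difference between genotypes was 0.38 (SE 0.69, adjusted p 0.89).

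**Figure D3:**
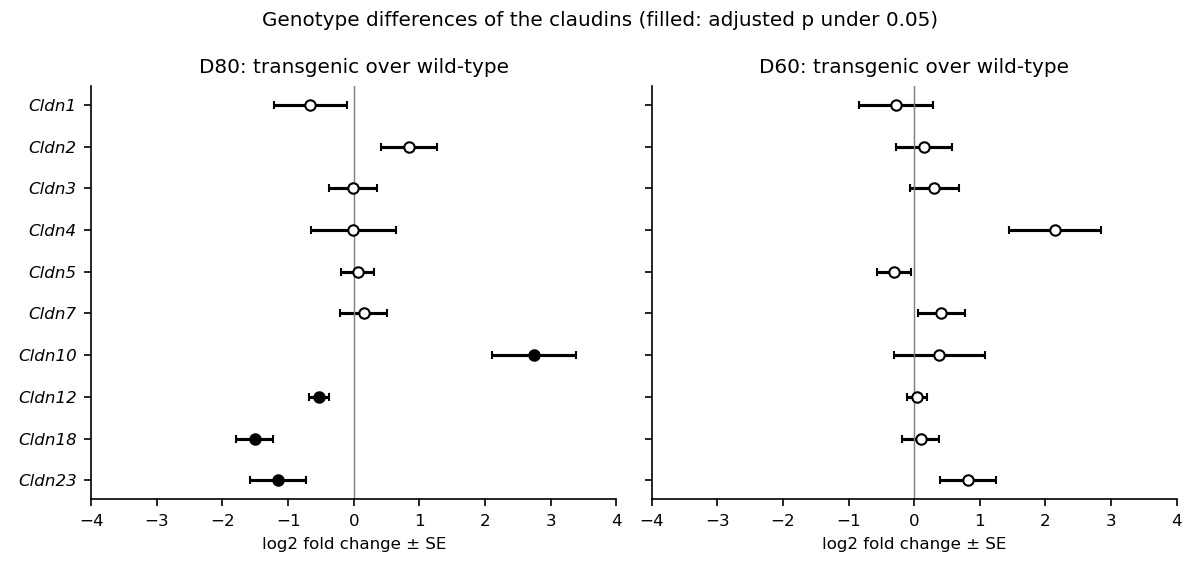
Log2 fold change of transgenic over wild-type pylorus for each claudin at D80 (left) and D60 (right), with its SE, and filled points for an adjusted p under 0.05. 4 points are filled at D80, and at D60 Cldn4 lies farthest from 0 at 2.15 with an open point.

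The sealing claudins Cldn3, Cldn4 and Cldn7 did not differ between genotypes in the test at either age. At D60, 0 of the 10 claudins passed in edgeR, and 0 in DESeq2, against 3.9% of all genes tested in edgeR. In edgeR 1 claudin, Cldn4, had an unadjusted p under 0.05, as did 2255 of all 15369 genes tested. Cldn4, which with Cldn3 is a receptor for the enterotoxin of Clostridium perfringens, had 19.2, 15.4 and 45.0 CPM in D60SV, against 4.32, 7.96 and 5.57 CPM in D60WT. The D60 groups did not overlap, as was so, with D60SV higher, for 12.2% of all genes tested. The log2 fold change was 2.15 (SE 0.70), 4.43-fold, with an adjusted p of 0.15. The adjusted p was 0.021 when the 2 groups were fitted alone and 0.0077 without D80WT replicate 3, a library outside this comparison that entered the shared estimate of the spread. In 19 of 22 alternatives Cldn4 did not pass at D60. Sex as a covariate was among them, but that term was set by D80SV replicate 1 against D80SV replicates 2 and 3. It is no separate adjustment for sex at D60. The log2 fold change of Cldn4 was 1.53 to 2.41 over all 22.

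At D80, Cldn4 was at 47.5, 65.6 and 45.5 CPM in D80SV, against 16.1, 20.9 and 122 CPM in D80WT. D80WT replicates 1 and 2 lay below all D80SV libraries and replicate 3 lay above them, and the log2 fold change was -0.00 (SE 0.65, adjusted p 1). Without D80WT replicate 3, the library with the most duodenal transcripts, it was 1.51, with an adjusted p of 0.018. The 12 duodenal enterocyte genes, none at 0 counts, summed to 1855 to 4059 CPM in D80SV and to 753 to 13080.4 CPM in D80WT. At D60 that sum overlapped, at 884 to 1978 CPM in D60SV and 1351 to 1810.2 CPM in D60WT. The part of the duodenal transcripts in the Cldn4 levels was not tested at either age. The profiles most like that of Cldn4 were those of Enpep, Vnn1 and Trim15, at root-mean-square differences of 0.56, 0.57 and 0.60, farther than for Cldn18, Cldn2 or Cldn3.

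Cldn3 and Cldn7 moved together. Cldn3 had 72.2, 78.0 and 51.6 CPM in D80SV, against 43.1, 61.2 and 99.0 CPM in D80WT, and 35.1, 21.0 and 43.5 CPM in D60SV, against 14.4, 35.8 and 30.1 CPM in D60WT. Cldn7, which also sits on the lateral membrane below the junction, had 172, 174 and 149 CPM in D80SV, against 82.4, 142 and 222 CPM in D80WT, and 114, 59.0 and 119 CPM in D60SV, against 46.2, 90.8 and 82.1 CPM in D60WT. For both, the D80WT libraries spanned the D80SV range, with replicate 3 highest. The D80 log2 fold changes were -0.01 (SE 0.37, adjusted p 0.98) for Cldn3 and 0.15 (SE 0.36, adjusted p 0.76) for Cldn7. The sign of the Cldn3 value flipped under other scalings, to 0.43 with no composition factor. Of all 11474 candidate genes, Cldn7 was the one most like Cldn3, at a root-mean-square difference of 0.21. Among the 45 pairs of members that was the smallest difference, and the next, Cldn5 with Cldn12, was 0.49. The log2 level of Cldn3 minus that of Cldn7 was -1.31 ± 0.19 in D80SV, -1.10 ± 0.15 in D80WT, -1.55 ± 0.13 in D60SV and -1.49 ± 0.17 in D60WT (SD, n = 3 each). Cldn4 minus Cldn7 was -1.66 ± 0.23 in D80SV, -1.99 ± 0.998 in D80WT, -1.97 ± 0.58 in D60SV and -3.60 ± 0.24 in D60WT, so that Cldn4 was lowest beside Cldn7 in the D60 wild-type pylorus. Cldn3 shares 40 exon bases with Wbscr25 on the opposite strand, and the strand setting of the counting is not given in the sources used here.

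With age in transgenic mice, 4 of 10 claudins passed, against 35.7% of all genes tested, 17.7% as higher and 18% as lower. Cldn2 and Cldn10 were higher in D80SV, and Cldn12 and Cldn18 were lower. The D80SV libraries lay above all D60SV libraries for 5 of the 10 claudins, as for 30.6% of all genes tested. They were Cldn2 and Cldn10, and 3 that did not pass: Cldn3, with a log2 fold change of 1.02 (SE 0.38, adjusted p 0.053), Cldn4 with 0.996 (SE 0.66, adjusted p 0.26) and Cldn7 with 0.76 (SE 0.36, adjusted p 0.12). Cldn3 did pass in 8 of 22 alternatives. The D80SV libraries lay below all D60SV libraries for 3 of the 10 claudins. They were Cldn12 and Cldn18, and Cldn23, which did not pass (log2 fold change -1.01, SE 0.42, adjusted p 0.083). The share of all genes tested that lay below is not given here. In wild-type mice 0 claudins passed in edgeR, as did 0% of all genes. An unadjusted p under 0.05 was found for 4 claudins and 1925 genes in all, and DESeq2 passed 1 claudin and 254 genes. Those 4 were Cldn3 (log2 fold change 1.34, SE 0.38, adjusted p 0.29), Cldn4 (3.15, SE 0.72, adjusted p 0.28), Cldn7 (1.02, SE 0.36, adjusted p 0.31) and Cldn23 (0.97, SE 0.43, adjusted p 0.38). The D80WT libraries were female and the D60WT libraries male, so sex and age cannot be told apart in wild-type mice, and the interaction holds the same contrast. The interaction of genotype and age was -0.32 (SE 0.53, adjusted p 0.77) for Cldn3 and -0.26 (SE 0.51, adjusted p 0.8) for Cldn7.

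Cldn12, a broadly made claudin without the usual scaffold-binding tail, had 36.6, 27.3 and 34.0 CPM in D80SV, against 49.0, 51.8 and 41.1 CPM in D80WT. The groups did not overlap, and neither did those of Cldn18 and Cldn10; in all 50.5% of genes tested did not overlap at D80. The log2 fold change of Cldn12 was -0.54 (SE 0.15), 1.45-fold lower, with an adjusted p of 0.015. The call was lost in 4 of 22 alternatives. With no composition factor the value was -0.13 with an adjusted p of 0.57. The call was also lost with upper-quartile factors, and without D80SV replicate 2 (-0.42, adjusted p 0.068) or D80WT replicate 2 (-0.47, adjusted p 0.055). At D60 it was 58.2, 46.9 and 49.5 CPM in D60SV, against 50.9, 42.5 and 56.4 CPM in D60WT (log2 fold change 0.05, SE 0.15, adjusted p 0.95).

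Cldn23, which in the gut is made by differentiated surface cells, had 12.8, 11.8 and 8.27 CPM in D80SV, against 9.75, 26.6 and 37.1 CPM in D80WT. D80WT replicate 1 lay within the transgenic range and the other 2 above it. The log2 fold change of -1.16 (SE 0.43) had an adjusted p of 0.047, and the call was lost in 17 of 22 alternatives, with values of -0.73 without D80WT replicate 3 (adjusted p 0.19) and -0.70 with no composition factor (adjusted p 0.16). At D60 the levels were 19.8, 13.7 and 32.9 CPM in D60SV, against 13.6, 14.0 and 9.95 CPM in D60WT, a log2 fold change of 0.83 (SE 0.43, adjusted p 0.42).

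Cldn1 and Cldn5 passed in no comparison. Cldn1, the sealing claudin of skin, had 5.89, 3.17 and 4.40 CPM in D80SV, against 13.4, 5.56 and 2.34 CPM in D80WT, a log2 fold change of -0.66 (SE 0.55, adjusted p 0.36). Cldn5, the claudin of blood vessel endothelium, had 3.78, 5.72 and 4.37 CPM in D80SV, against 4.71, 3.57 and 4.98 CPM in D80WT, a log2 fold change of 0.06 (SE 0.26, adjusted p 0.87). Of 12 other endothelial genes 8 passed as higher in D80SV, where 19.4% of all genes tested did. The sum of the 12 was 398 to 462 CPM in D80SV, against 214 to 327 CPM in D80WT. Relative to the mean log2 level of those 12 genes, Cldn5 was at -2.50 ± 0.25 in D80SV and -1.88 ± 0.29 in D80WT (SD, n = 3 each), and the groups did not overlap. At D60 the same values were -1.79 ± 0.18 in D60SV and -1.56 ± 0.16 in D60WT, and the groups overlapped. The 12 reference genes had a median log2 fold change of 0.78 at D80, so a gene of unchanged level comes out lower in D80SV on this scale. No share of all genes was computed for it.

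To compare levels between members, CPM were divided by exon length in kilobases. Per kilobase, Cldn2 was the most abundant of the 10 in D80SV at 206 ± 23.0 CPM, followed by Cldn18 at 94.3 ± 23.3 and Cldn7 at 84.7 ± 7.10 (SD, n = 3), and the last 2 of these did not differ beyond their spread. In D80WT the order was Cldn18 at 269 ± 88.2, Cldn2 at 115 ± 75.6 and Cldn7 at 76.3 ± 36.0 CPM per kilobase, with Cldn2 and Cldn7 within their spread of each other. In D60SV Cldn18 led at 322 ± 38.6, before Cldn2 at 83.1 ± 4.78, and in D60WT it led at 301 ± 80.1, before Cldn2 at 75.0 ± 29.0. Cldn3 ranked 4 of 10 in all groups, and Cldn1, at 0.737 to 1.46, and Cldn10, at 0.0939 to 0.638, came last in all groups by their means.

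The sum over the 10 members differed less between groups than the levels of Cldn18 and Cldn2. It was 486 ± 44.6 CPM per kilobase in D80SV, 572 ± 86.6 in D80WT, 524 ± 73.2 in D60SV and 461 ± 37.3 in D60WT (SD, n = 3 each). Of that sum, Cldn18 held 19.2% ± 2.95 in D80SV and 46.2% ± 9.86 in D80WT, and 61.7% ± 3.61 in D60SV and 64.7% ± 12.3 in D60WT. Cldn2 held 42.5% ± 4.90 in D80SV and 21.8% ± 17.5 in D80WT, and 16.0% ± 1.58 in D60SV and 16.5% ± 6.79 in D60WT. The D80SV share of Cldn18, 16.6% to 22.4%, was below the lowest of the other 9 libraries, 36.1% in D80WT replicate 1. In that library Cldn2 held 41.0%, within the 37.9% to 47.7% of D80SV. Shares sum to 100% in a library, so these values are not independent of each other.

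**Figure D4:**
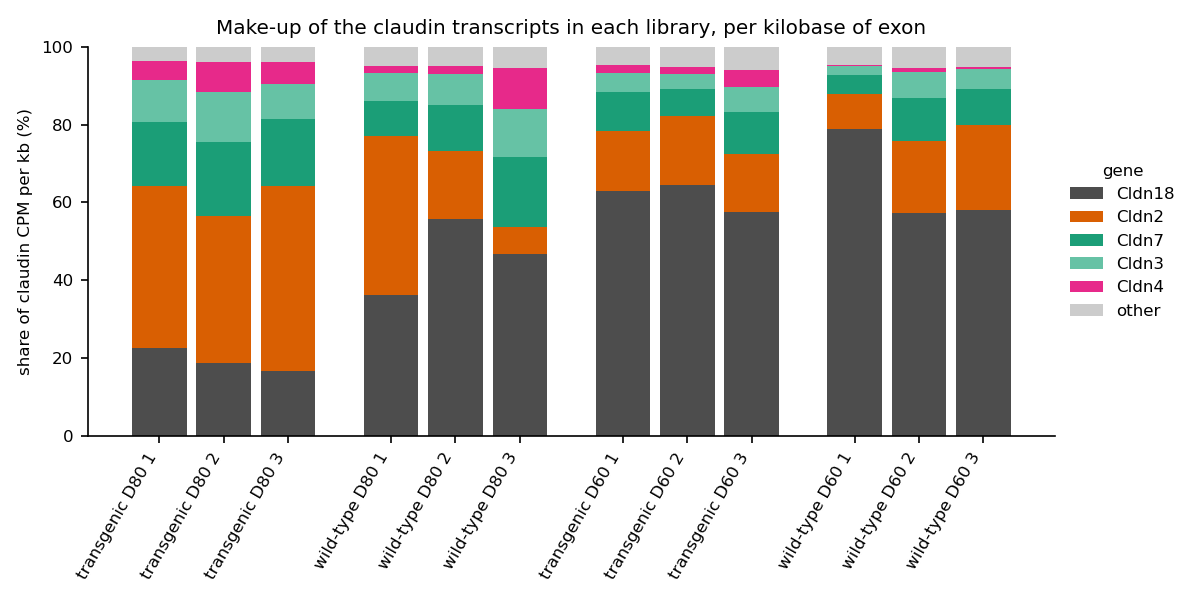
Share of each claudin (%) in the summed claudin CPM per kilobase of exon, 1 bar per library, with the 5 most abundant members in colour and the rest as other. The Cldn18 segment is 16.6% to 22.4% in D80SV and 36.1% or more in the other 9 libraries.

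Each member was also set against 10 pan-epithelial genes in the same library, as its log2 level minus their mean log2 level. That mean was 8.82 ± 0.21 in D80SV and 9.46 ± 0.50 in D80WT, and 7 of the 10 genes were lower in D80SV. On this scale Cldn2 was higher in D80SV, at 0.59 ± 0.21, against -1.13 ± 1.54 in D80WT. Cldn7 was at -1.46 ± 0.16 in D80SV, against -2.35 ± 0.30 in D80WT, and Cldn3 at -2.76 ± 0.25 in D80SV, against -3.45 ± 0.28 in D80WT (SD, n = 3 each). For these 3 and for Cldn10 the D80SV libraries were all above the D80WT libraries, for Cldn2 by a narrow margin, with 0.46 in D80SV replicate 2 against 0.45 in D80WT replicate 1. Cldn18 was at -0.14 ± 0.14 in D80SV, against 0.71 ± 0.17 in D80WT, with all D80SV libraries lower. The Cldn12 difference of -0.54 by the test of levels was 0.10 on this scale, with overlapping groups. These values depend on the reference genes. Their mean was lower on average in D80SV, so a gene of unchanged level comes out higher there on this scale. By the test of levels the D80 log2 fold change was -0.01 for Cldn3 and 0.15 for Cldn7. The share of all genes that did not overlap on this scale was not computed. Epcam alone had 617, 566 and 615 CPM in D80SV, against 595, 624 and 653 CPM in D80WT. Against Epcam, the D80SV minus D80WT difference was 0.11 for Cldn3 and 0.32 for Cldn7, where it was 0.68 and 0.89 against the 10 genes, and -1.42 for Cldn18, where it was -0.85.

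**Figure D5:**
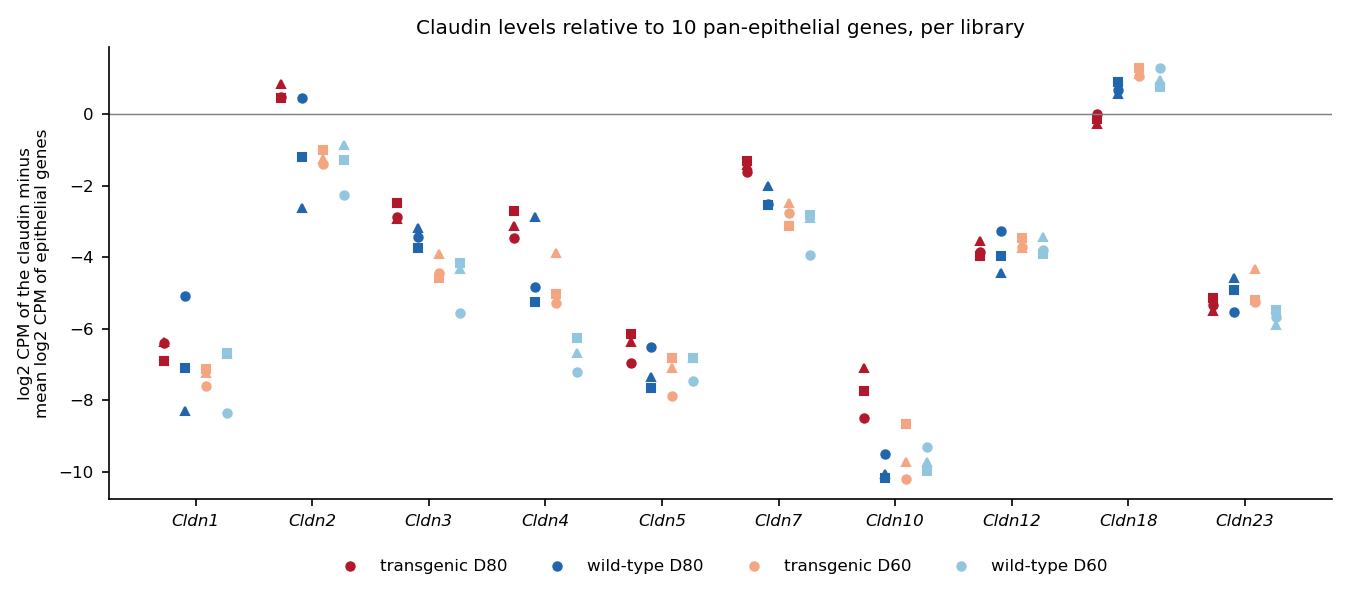
Log2 CPM of each claudin minus the mean log2 CPM of 10 pan-epithelial genes, with 3 libraries per group as points. D80SV points lie above D80WT points for Cldn2, Cldn3, Cldn7 and Cldn10, and below them for Cldn18. The mean of the 10 pan-epithelial genes was itself lower on average in D80SV.

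Of 16 other rows whose symbol begins with Cldn, 5 passed the filter on low counts. Cldn6, a claudin of embryonic epithelium, had 5.08, 3.32 and 4.34 CPM in D80SV, against 0.528, 0.176 and 0.260 CPM in D80WT. The groups lay far apart, with a log2 fold change of 3.69 (SE 0.54), 12.9-fold, and an adjusted p of 0.00036, which passed in all 22 alternatives. The D60 levels of Cldn6 overlapped, at 0.285 to 1.13 CPM in D60SV and 0.333 to 0.895 CPM in D60WT, and the interaction was 3.48 (SE 0.77, adjusted p 0.027), a call lost in 8 of 21 alternatives. Cldn15, the sodium channel of small-intestinal junctions, had 79.1, 77.1 and 55.3 CPM in D80SV, against 5.40, 92.2 and 165 CPM in D80WT. It spread over more than 30-fold within D80WT, in the order of the duodenal sums, and did not pass (log2 fold change -0.31, SE 0.85, adjusted p 0.79). Cldn8 and Cldn22 did not pass either (log2 fold changes of -1.13 and -0.87, adjusted p 0.15 and 0.066). The row named Cldn25 was lower in D80SV (-0.67, SE 0.18, adjusted p 0.013), but that symbol is a RefSeq synonym of both Cldnd1 and Cldn25-ps, so which gene it counts is uncertain. Cldn11, a claudin of myelin and Sertoli cells, was below the filter, with 10, 18 and 16 counts in D80SV, against 0 counts in all D80WT libraries, at least 11.1-fold higher against a floor of 3 counts over the group.

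The partners of the claudins in the junction that differed at D80 were nearly all lower in transgenic mice, where over all genes tested 19.4% were higher and 22% lower. The 10 pan-epithelial genes moved with them: 7 of the 10 were lower by edgeR, with a median log2 fold change of -0.74, and their sum was 5642 to 8205 CPM in D80SV, against 11690.1 to 17139 CPM in D80WT. Their part in the counts of the lists was not tested. The lists share genes, since Cdh1 is also counted among the adherens junction genes and Elf3 among the regulators. Of 14 tested membrane partners 0 were higher and 6 lower by edgeR, with a median log2 fold change of -0.33, 0 were higher at an unadjusted p under 0.05, and DESeq2 gave 0 higher and 6 lower. Occludin (Ocln), the first known strand protein, had 55.4, 40.3 and 40.2 CPM in D80SV, against 67.2, 121 and 119.6 CPM in D80WT (log2 fold change -1.18, adjusted p 0.0024). Junctional adhesion molecule A (F11r) was lower by a log2 fold change of -0.76 (adjusted p 0.0053), the polarity protein Crb3 by -0.94 (adjusted p 0.003) and Bves, a membrane protein of muscle and epithelium, by -2.19 (adjusted p 0.00022). The 10 smooth muscle genes, all tested, summed to 2710 to 2864 CPM in D80SV, against 11293 to 18343 CPM in D80WT, and their part in the Bves result was not tested.

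Of 21 tested scaffold and adaptor genes, which tie claudin tails to the actin cortex, 0 were higher and 12 lower in D80SV by edgeR, with a median of -0.63, 0 were higher at an unadjusted p under 0.05, and DESeq2 gave 0 higher and 11 lower. Examples were Tjp3, the scaffold ZO-3, at -0.92 (adjusted p 0.0026), Magi1 at -0.88 (adjusted p 0.00048), the polarity kinase gene Prkci at -0.65 (adjusted p 0.00092) and Amotl1 at -1.06 (adjusted p 0.0038). Of 14 tested adherens junction and desmosome genes, 1 was higher and 11 lower, with a median of -0.81. E-cadherin (Cdh1) was at 522 to 750 CPM in D80SV, against 1020 to 1350 CPM in D80WT (-1.02, adjusted p 0.0038), with plakoglobin (Jup) at -1.14 (adjusted p 0.0009) and desmoplakin (Dsp) at -1.38 (adjusted p 0.0045). The 1 that was higher was Pvrl1, nectin-1, with 32.0, 34.9 and 31.5 CPM in D80SV, against 21.7, 17.7 and 14.9 CPM in D80WT (0.86, adjusted p 0.0013). Of 20 tested factors known to regulate claudins or epithelial junction genes, 1 was higher and 8 lower. The 1 that was higher was Snai1, which encodes the repressor Snail, with 5.44, 7.71 and 13.3 CPM in D80SV, against 2.23, 2.07 and 3.21 CPM in D80WT (log2 fold change 1.81, SE 0.43, adjusted p 0.0065), named after its value was seen. Among the lower were Grhl2 at -0.93 (adjusted p 0.0011), Grhl1 at -1.58 (adjusted p 0.0009), Klf4 at -1.70 (adjusted p 0.00089) and Ovol2 at -1.45 (adjusted p 0.00028), all by edgeR. Zeb1, of the same list, had 20.5, 26.8 and 28.0 CPM in D80SV, against 43.3, 35.0 and 52.7 CPM in D80WT. For Snai2 all D80SV libraries lay above the D80WT libraries, without passing, and for Zeb2 and Twist1 the groups overlapped. These genes were also named after their values were seen. In the bulk RNA the Snail and Zeb transcripts thus did not move together at D80. The smooth muscle sum was also lower in D80SV, at 2710 to 2864 CPM, against 11293 to 18343 CPM in D80WT. Its part in the Zeb1 levels was not tested.

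These counts depend on the scaling. With no composition factor the median of all genes at D80 moved to 0.34, against -0.07 with TMM, and the share of passing genes that were higher moved to 83.6%, against 46.8% with TMM and 63.0% with upper-quartile factors. Without it, 1 membrane partner was higher and 3 lower, 2 scaffolds were higher and 3 lower, 1 adherens junction or desmosome gene was higher and 7 lower, and 1 regulator was higher and 6 lower. At D60, 0 genes of these 4 lists passed in edgeR and 0 in DESeq2. In edgeR 4 genes, Ildr2, Bves, Pvrl1 and Snai2, had an unadjusted p under 0.05, as did 2255 of all 15369 genes tested. The smallest D60 p-values of the lists belonged to Bves (log2 fold change -0.77, adjusted p 0.21) and Ildr2 (1.52, adjusted p 0.27) among partners, Csda (-0.27, adjusted p 0.35) and Amotl1 (-0.39, adjusted p 0.49) among scaffolds, Pvrl1 (0.39, adjusted p 0.27) and Pvrl2 (0.16, adjusted p 0.71) among adherens junction genes, and Snai2 (1.37, adjusted p 0.27) and Ephb1 (0.83, adjusted p 0.56) among regulators.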

How the data were processed

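RNA of bulk pylorus was sequenced in 12 libraries, 4 groups of 3, mapped to groups by their titles. The labels' protocols give a Qiagen column kit for RNA and an Illumina kit for stranded mRNA. The authors deposited raw counts per gene symbol, with no normalization. Build mm10 and the tools edgeR 3.16.5, HTSeq 0.9.1 and STAR 2.5.3a are listed per the submitters' processing notes, with no roles. How the counting treated strand was not given in the sources used here, nor was its gene annotation. The deposited normalized table was not used.

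edgeR 4.0.16 (R 4.3.3) was run on these counts. filterByExpr kept 15369 of 23420 genes, with 99.975% of the counts. TMM factors ran from 0.805 to 1.30. The quasi-likelihood fit took all 12 libraries, with a coefficient for each group and 8 residual degrees of freedom. Adjusted p-values (Benjamini-Hochberg) cover the 15369 genes. SE is the absolute log2 fold change divided by the square root of F. Log2 levels are of CPM + 0.5. The floor for a group at 0 was 3 counts over its 3 libraries, and it covers counting error only. Gene limits and exon lengths came from GENCODE, build GRCm38, and promoter windows from RefSeq, build GRCm38.p6.

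The members and gene lists were chosen with earlier results of these data known. All 10 members were named. Of each junction or regulator list, up to 4 genes with the smallest p at D80 and 2 at D60 were named. The 3 most alike genes were given for the 4 claudins that varied most. Same-numbered libraries of different groups did not deviate together (mean correlation of 18 pairs -0.013, from -0.39 to 0.42), so numbers were not treated as pairs. Alternatives were other scaling factors, other filters, DESeq2 1.42.0, a replicate block, sex as a covariate, only the groups compared, leaving out D80WT replicate 3 with D80SV replicate 1, leaving out each library, and Epcam alone as the epithelial reference. The alternatives for other claudins, partners and regulators were chosen after seeing the data. The pipeline was tested on simulated data.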

Additional observations from a re-analysis of the deposited data

Results flagged for a closer look

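The genotype difference of Cldn18 itself differed between the ages. It was a log2 fold change of -1.51 at D80 and 0.10 at D60, and the interaction of genotype and age was -1.61 (SE 0.40, adjusted p 0.041 by edgeR). All 3 D80SV libraries were below all 3 D80WT libraries, and the D60 groups overlapped. The call was lost in 12 of 21 alternatives, with adjusted p from 0.0023 to 0.12 over all of them and values of -2.38 to -1.31. No test of single libraries within a group was made, since groups of 3 are too small for it. Sex and genotype cannot be told apart at D60, which the interaction includes. Surface mucous transcripts moved the same way, and their part in the result was not tested.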

How the results depend on the processing

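The D80 differences of Cldn18 (-1.76 to -1.08), Cldn10 (2.40 to 3.34) and Cldn6 (3.40 to 4.25), and the change of Cldn18 with age in transgenic mice (-1.99 to -1.41), passed in every alternative that tested them. Cldn10 passed the filter on low counts through D80SV, the group where it was high. Under the alternatives run, the values of single claudins that changed sign were all of differences that had not passed the test, and the cause was not tested unless stated.

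With no composition factor, 2 claudins passed at D80, as with upper-quartile factors and with a filter at a mean of 1 CPM, where Cldn10 was not tested. At D80 the Cldn3 value changed sign to 0.024 with DESeq2's size factors, 0.43 with no composition factor, 0.16 with upper-quartile factors, 0.0094 with the filter at 1 CPM and 0.024 in DESeq2. It was 0.081 with the replicate block, 0.033 with only the groups compared, and 0.31 without D80WT replicate 3 and D80SV replicate 1. The Cldn4 value at D80 in the same order was 0.029, 0.49, 0.20, 0.015, 0.029, 0.49, 0.043 and 1.58, and it was 0.069 with sex as a covariate. Cldn15 at D80 was 0.18 with no composition factor, 0.026 with the replicate block and 0.44 without D80WT replicate 3 and D80SV replicate 1. For the interaction, no composition factor gave 0.068 for Cldn3 and 0.13 for Cldn7, and leaving out those 2 libraries gave 0.0010 and 0.11.

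DESeq2 passed 992 genes at D60, 1 claudin and 254 genes between ages in wild-type mice, and 2 claudins and 1745 genes for the interaction. Only D80SV held both sexes, so the sex covariate was set by D80SV replicate 1 against replicates 2 and 3. It cannot part sex from genotype at D60 or from age in wild-type mice. Sex as a covariate left 85 passing genes at D60, 1 gene between wild-type ages, and 0 claudins and 99 genes for the interaction. The D60 values were then 0.36 for Cldn1 and -0.62 for Cldn10, and those between wild-type ages 0.18 for Cldn12 and 0.40 for Cldn18. With only the groups compared, 1 claudin passed at D60 (3.97% of all genes in that fit), 7 between ages in transgenic mice (45.5% of all genes), and 5 genes between wild-type ages. Without D80WT replicate 3 and D80SV replicate 1, 1 claudin passed at D60, 0 for the interaction, and 7 genes between wild-type ages, where Cldn12 was at 0.016; Cldn1 was then at -1.32 and Cldn5 at 0.28 at D80, and Cldn1 at -1.05 for the interaction.

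The replicate block, although numbers did not pair libraries, gave 3 claudins at D80, 3 between ages in transgenic mice and 0 for the interaction. The adjusted p was 0.096 for Cldn23 at D80, 0.056 for Cldn2 with age and 0.066 for the Cldn18 interaction, and no other call of the 10 claudins changed.

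Against Epcam alone, the D80SV minus D80WT values were 0.108 for Cldn3, 0.109 for Cldn5, 0.317 for Cldn7, 1.54 for Cldn10, -0.476 for Cldn12, -1.42 for Cldn18 and -0.895 for Cldn23, and at D60 -0.168 for Cldn12 and -0.0942 for Cldn18.

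Leaving out 1 library at a time gave 378 (without D60WT replicate 3) to 736 (without D80WT replicate 1) passing genes at D60, 3507 (without D80SV replicate 2) to 6594 between ages in transgenic mice, 0 to 396 between wild-type ages and 193 (without D60SV replicate 3) to 2419 for the interaction, the highest each without D80WT replicate 1. At D80 the passing genes ran from 4416 (without D80SV replicate 3) to 7079 (without D80WT replicate 1). Passing claudins ran from 0 to 1 at D60, 2 to 5 at D80, 2 to 6 and 0 to 2 between ages in transgenic and wild-type mice, and 0 to 2 for the interaction. At D60 the ranges that crossed 0 were -0.48 to 1.10 for Cldn10, -0.058 to 0.14 for Cldn12, -0.038 to 0.33 for Cldn18 and -0.13 to 0.44 for Cldn2. At D80 they were -1.08 to 0.18 for Cldn1, -0.87 to 0.53 for Cldn15, -0.25 to 0.36 for Cldn3, -0.44 to 1.51 for Cldn4, -0.12 to 0.18 for Cldn5 and -0.14 to 0.56 for Cldn7. Between wild-type ages they were -0.13 to 1.13 for Cldn1, -0.77 to 0.34 for Cldn10, -0.18 to 0.020 for Cldn12, -0.37 to 0.081 for Cldn18 and -0.22 to 0.073 for Cldn5. For the interaction they were -0.80 to 0.46 for Cldn1, -0.59 to 0.057 for Cldn3 and -0.56 to 0.14 for Cldn7.

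Another scaling moved the interaction's share of higher genes to 79.3% (no composition factor) and 65.4% (upper-quartile factors), against 55.3%, and that of the transgenic age comparison to 82.4% with no composition factor, against 49.6%. Counts limit Cldn10 most, with 3 to 78 counts per library.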
